A study of Mus musculus with 6 samples.

Results

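The amino acid transporter genes described here are the 62 genes, of 19938 genes measured, whose symbols place them in the solute carrier families Slc1, Slc3, Slc6, Slc7, Slc36, Slc38 and Slc43. Membership was set by symbol alone, through probe sets that carry exactly 1 gene symbol, with Slc7a2 and Slc7a11 left out and where a gene had several probe sets the one with the highest mean stood for it. The macrophages were sorted by flow cytometry from hepa1-6 tumours, grown from a mouse hepatoma cell line implanted in the liver of C57BL/6 mice, and their RNA was measured on the Mouse Gene 1.0 ST array of Affymetrix. The vehicle group held 3 samples from mice given vehicle, and the PLX3397 group held 3 from mice that received PLX3397, a drug that blocks the receptor kinase CSF1R and also KIT and FLT3. All 6 samples shared the strain, the tumour line and the implantation site, and the labels give no dose, treatment time, age or sex of the mice. Replicates are described as biological, but no label ties a sample to a mouse of its own. The p-values here set the difference between groups against the spread between these samples, which may not be the spread between mice. A different name stands in the description fields, of macrophages given LPS with interferon-gamma (vehicle) or IL4 (PLX3397); it goes against the titles and was not used.

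Amino acid transporters are membrane proteins that move amino acids into and out of cells, and across the membrane of the lysosome. Slc1 proteins carry glutamate or small neutral amino acids, Slc6 proteins use sodium and chloride to take up neurotransmitters, osmolytes and amino acids, and Slc38 proteins carry glutamine and other small neutral amino acids. Slc7 light chains pair with an Slc3 heavy chain to exchange amino acids across the membrane, whereas the cationic transporters of Slc7 work alone and bring arginine and lysine into the cell. In macrophages, arginine taken up from outside feeds arginase and nitric oxide synthase, and glutamine and leucine reaching the lysosome feed the growth kinase mTORC1. Not every gene of these families encodes an amino acid transporter: Slc6a2, Slc6a3 and Slc6a4 carry noradrenaline, dopamine and serotonin, Slc6a8 carries creatine and Slc43a3 carries nucleobases. Slc6a19os and Slc7a6os are genes on the opposite strand of a transporter gene that share its symbol.

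A handful of transporter genes changed by a large amount and most of the others by little or not at all. Slc6a12, the betaine and GABA transporter, rose by 2.98 log2 with PLX3397, Slc1a2, a high-affinity glutamate transporter, by 2.52, and Slc1a5, a glutamine and neutral amino acid exchanger, by 1.58. Slc7a1, the main arginine and lysine uptake transporter of many cells, fell by 1.68. A difference in a bulk sample can come from fewer cells of a type or from less RNA per cell, and the arrays cannot tell these apart. Values are the deposited log2 values, with mean ± SD over 3 arrays, and changes are PLX3397 minus vehicle with the standard error (SE) of a limma fit and a p-value adjusted over all 19938 genes, called at 0.05.

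**Figure D1:**
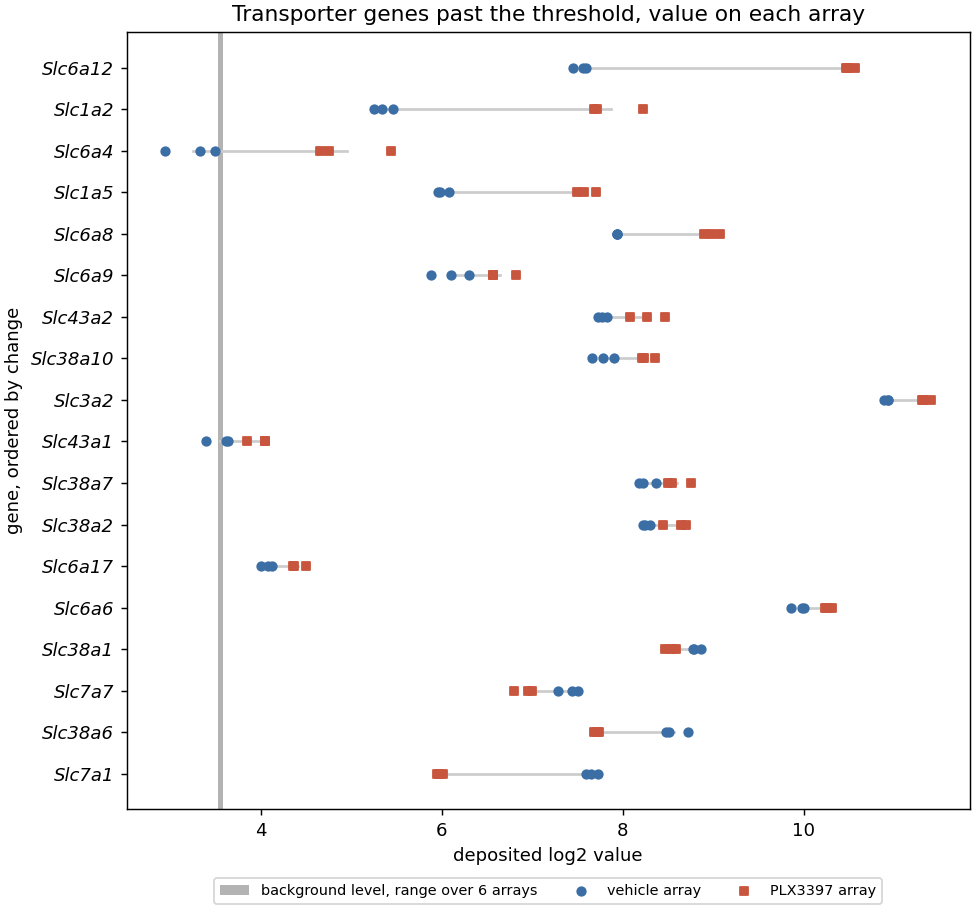
Deposited log2 value (x axis) on each of the 6 arrays for the 18 transporter genes past the threshold that were above background on all 3 arrays of at least 1 group (y axis, ordered by change), with vehicle arrays as circles, PLX3397 arrays as squares, a grey line between the group means and a grey band for the background level. The groups do not overlap for any of the 18 genes, which were picked by their p-values on these same arrays. Of all genes above background, called or not, 63.2% show no overlap. Slc6a12 and Slc7a1 stand farthest apart in their directions.

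Of the 62 genes, 39 were above background on all 3 arrays of at least 1 group, 17 were above it on no array, and 6 on some arrays only. Background, set per array as the 95th percentile of 1194 genes for odorant and vomeronasal receptors, ranged from 3.52 to 3.58. In total 17 transporter genes rose and 4 fell, 33.9% of the 62, while 37.8% of all genes were called, 19.6% as higher and 18.3% as lower. Among the 39 genes above background 14 rose and 4 fell, 46.2%, beside 52.4% of the 13504 genes of the table above background, of which 26.7% were higher and 25.7% lower. The share called in either direction was thus near that of all genes, and that share says nothing particular about transporters. By direction, rises outnumbered falls more among the transporter genes than among all genes, a difference that was not tested. The groups did not overlap for 32 of the 62 genes, beside 49.3% of all genes, and for 25 of the 39, beside 63.2% of all genes above background. Changes of at least 1 log2 past the threshold numbered 5 upward and 1 downward, beside 3.21% and 4.04% of all genes. The median change was 0.11 over the 62 genes and 0.04 over all genes.

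When each array was centred on its own median, which took the median over all genes from 0.04 to -0.07, 11 transporter genes rose and 5 fell, and their median change was -0.00050. Among genes above background, centring ended the call of 4 genes with rises of 0.32 to 0.34, which are named with their values where each is described. Of the 18 called genes above background, 13 kept the call and the direction, at the same threshold, under every other normalisation, filter, fit and left-out array that tested them. The members varied little within a group. The SD over the 3 arrays had a median of 0.10 in vehicle and 0.098 with PLX3397 and was highest for Slc6a4, at 0.28 in vehicle and 0.42 with PLX3397. For 3 of the 39 genes, 1 array lay over 0.5 from the mean of its group's other 2: Slc1a2 and Slc6a4 on PLX3397 replicate 1 (0.52 and 0.73 higher) and Slc43a3 on PLX3397 replicate 3 (0.65 higher).

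**Figure D2:**
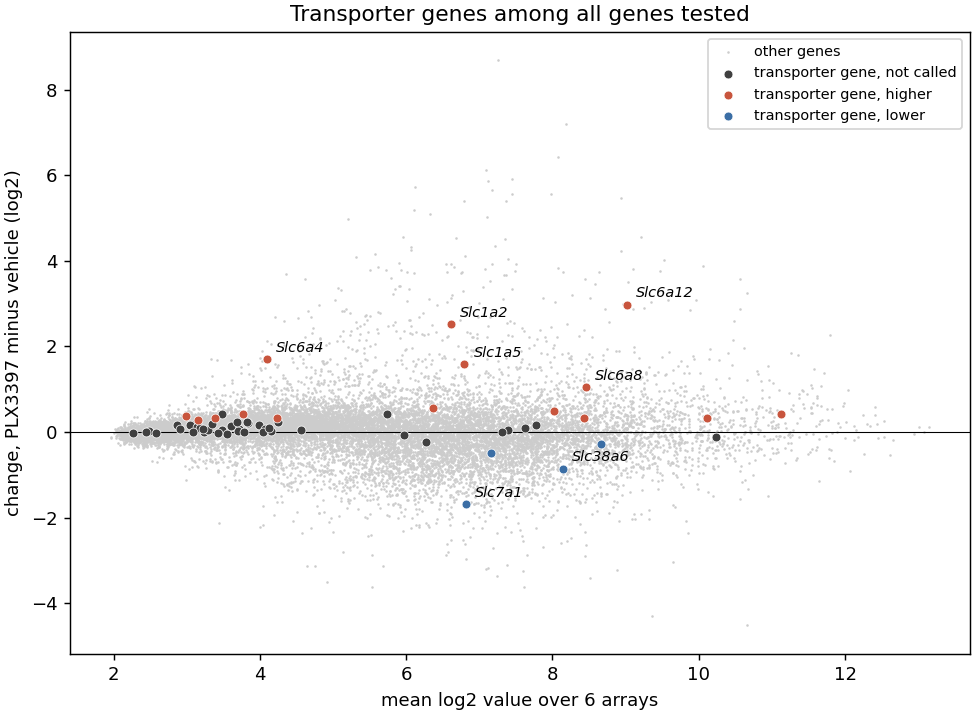
Change with PLX3397 in log2 (y axis) against the mean log2 value over the 6 arrays (x axis), with 1 point per gene for all 19938 genes and the 62 transporter genes in larger points coloured by call. Slc6a12, Slc1a2, Slc6a4, Slc1a5 and Slc6a8 lie above the bulk of genes and Slc7a1 and Slc38a6 below zero, while most transporter genes sit close to zero.

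The 250 bases upstream of the 5′ end of the gene are given for Slc6a12 and Slc7a1, the genes with the largest rise and the largest fall, and for Slc38a2, to show which of the regulatory motifs searched they hold. The sequences are from RefSeq on GRCm38.p6. They lie at chr6:121342324-121342573 on the plus strand for Slc6a12, at chr5:148399905-148400154 on the minus strand for Slc7a1 and at chr15:96699729-96699978 on the minus strand for Slc38a2. Capitals mark motif matches.
Slc6a12: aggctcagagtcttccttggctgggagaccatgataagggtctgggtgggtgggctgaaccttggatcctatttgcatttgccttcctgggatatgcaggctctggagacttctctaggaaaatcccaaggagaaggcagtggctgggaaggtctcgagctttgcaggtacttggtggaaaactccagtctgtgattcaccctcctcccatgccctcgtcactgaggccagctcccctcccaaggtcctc
Slc7a1: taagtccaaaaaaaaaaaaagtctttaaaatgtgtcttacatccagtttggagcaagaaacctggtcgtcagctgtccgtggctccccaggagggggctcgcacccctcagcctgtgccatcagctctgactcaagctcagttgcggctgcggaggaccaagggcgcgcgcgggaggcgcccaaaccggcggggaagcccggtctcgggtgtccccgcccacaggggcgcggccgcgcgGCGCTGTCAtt
Slc38a2: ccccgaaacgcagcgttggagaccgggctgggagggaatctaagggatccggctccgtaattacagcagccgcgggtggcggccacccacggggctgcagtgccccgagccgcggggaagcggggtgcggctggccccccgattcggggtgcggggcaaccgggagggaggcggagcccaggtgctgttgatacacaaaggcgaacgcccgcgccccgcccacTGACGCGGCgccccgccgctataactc

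The motifs searched on both strands, from 250 bases before to 50 after each start, were the ATF4 element CARE (TGATGNAAT), the TFEB element CLEAR (TCACGTGA), the NRF2 element (TGACNNNGC) and the STAT element GAS (TTC and GAA with 3 or 4 bases between them). RefSeq promoters were matched for 46 of the 62 genes, with 67 start sites in all. The window of Slc6a12 shown holds none of them. That of Slc7a1 holds an NRF2 element match at positions -11 to -3, and that of Slc38a2 one at -27 to -19, counted with the start base as 0. A second start of Slc7a1 has a GAS match. Of the 11 rising genes above background that have a promoter in the table, 0 had CARE, 0 had CLEAR, 3 had an NRF2 element and 1 had GAS. Of the 3 falling ones, 0, 0, 1 and 1 did. A gene with several starts has several chances of a match, so shares were also counted per promoter. Of the 19 promoters of the rising genes, 21.1% held an NRF2 element and 5.26% GAS, and of the 8 of the falling genes 12.5% held each. Among all 32851 promoters CARE, CLEAR, the NRF2 element and GAS were found in 0.965%, 0.974%, 12.4% and 14.6%. With so few promoters, no difference is read from these shares. A match says only that these letters are present in the window, and a motif that lies outside the window would not be found.

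Among the GABA, betaine and taurine carriers, Slc6a12 and Slc6a6 rose and Slc6a11 and Slc6a13 were not called. Slc6a12 was at 7.56, 7.59 and 7.45 on the vehicle arrays and at 10.49, 10.57 and 10.47 on the PLX3397 arrays. The 3 PLX3397 arrays lay close together and far above the 3 vehicle arrays. The change was 2.98 (SE 0.08, 7.88-fold, adjusted p = 4.23e-09), rank 108 by size among all genes. Slc6a6, which takes up taurine, a sulphur amino acid that serves as an osmolyte, was at 9.98, 10.00 and 9.86 in vehicle and at 10.24, 10.26 and 10.31 with PLX3397. The rise of 0.32 was small but larger than the spread between arrays (SE 0.08, adjusted p = 0.0092). The call on Slc6a6 was lost when arrays were centred on their medians (change 0.21, adjusted p = 0.062, over a range of 0.0020 to 0.062). Slc6a13, a GABA and taurine carrier that lies directly beside Slc6a12 in the RefSeq gene order, was at 4.09 ± 0.06 and 4.18 ± 0.10 (adjusted p = 0.455). The GABA transporter Slc6a11 was at 4.04 ± 0.11 and 4.05 ± 0.08 (adjusted p = 0.950). Both were near background in both groups.

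Of the 7 Slc1 genes, 3 rose and 0 fell. Slc1a2 was at 5.25, 5.46 and 5.34 on the vehicle arrays and at 8.22, 7.72 and 7.68 on the PLX3397 arrays. All PLX3397 arrays were above all vehicle arrays, and replicate 1 was the highest. The change was 2.52 (SE 0.14, 5.74-fold, adjusted p = 4.35e-07) and ran from 2.35 to 2.63 over the alternatives. Slc1a5 was at 6.07, 5.98 and 5.96 in vehicle and at 7.70, 7.49 and 7.58 with PLX3397, without overlap. Its change was 1.58 (SE 0.09, 2.998-fold, adjusted p = 3.92e-07). Slc1a1, a glutamate and cysteine transporter, was above background only on 1 PLX3397 array (3.22 ± 0.20 and 3.54 ± 0.09). It passed the threshold as higher (adjusted p = 0.035) and is given without a fold. Slc1a3, another glutamate transporter of the family, was just above background at 3.73 ± 0.04 and 3.94 ± 0.11 (change 0.21, adjusted p = 0.071). It passed without PLX3397 replicate 1 (adjusted p = 0.043). Slc1a4, which exchanges alanine, serine and cysteine, was at 4.15 ± 0.07 and 4.17 ± 0.18 (adjusted p = 0.868), and Slc1a7 at 3.68 ± 0.21 and 3.75 ± 0.07 (adjusted p = 0.664). Slc1a6 was above background on no array.

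Slc1a2 and Slc6a12 are also expressed in liver cells, so the markers of hepatocytes and of the hepatoma were read beside them. Of 11 measured markers only transferrin (Trf) was called, rising from 8.45 to 11.30, while 37.8% of all genes were called. The summed linear value of the 11 markers was 446 to 498 on the vehicle arrays and 2431 to 3083 on the PLX3397 arrays. That of the 10 other than Trf was 117.5 to 136.4 and 128.0 to 132.1. These 10 were kept because they were not called, so nothing is read from the second sum. Of the 11 markers 5 were above background, 2 on some arrays only and 4 (Alb, Ttr, Ahsg and Fgb) on no array of either group. Afp, at 4.07 ± 0.08 and 4.00 ± 0.14, and Apoa2, at 4.69 ± 0.15 and 4.69 ± 0.13, were above background on all 6 arrays and Apoa1 and Hnf4a on 5, and none of these 4 was called. The liver glutamine and neutral amino acid transporters Slc38a3 and Slc38a4 were also above background on no array. The part of liver or hepatoma cells in the rises of Slc1a2 and Slc6a12 was not tested.

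**Figure D3:**
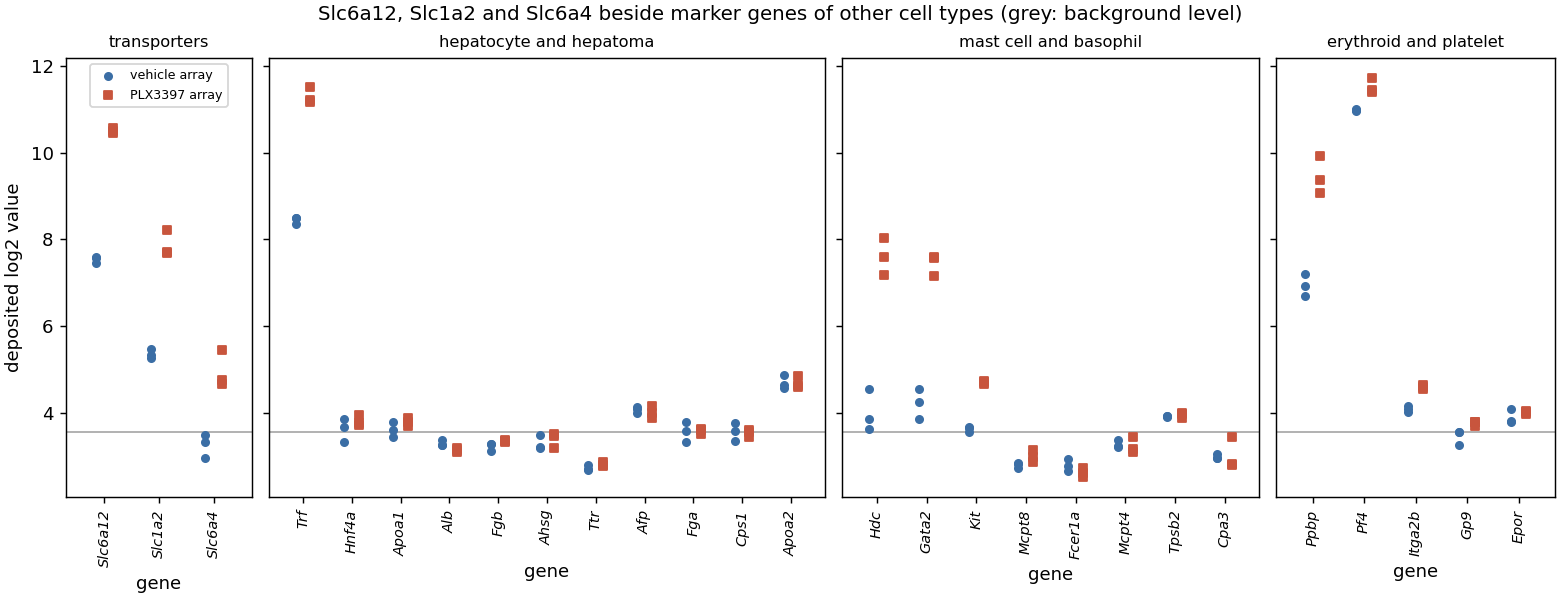
Deposited log2 values (y axis) of Slc6a12, Slc1a2 and Slc6a4 beside the measured markers of hepatocytes and hepatoma, of mast cells and basophils, and of erythroid cells and platelets (x axis, 1 position per gene), with vehicle arrays as circles, PLX3397 arrays as squares and the background level as a grey line. Alb, Ttr, Ahsg, Fgb, Cpa3, Fcer1a, Mcpt4 and Mcpt8 stay below background on all 6 arrays, Afp, Apoa2 and Tpsb2 lie above it on all 6 without being called, and Trf, Hdc, Gata2, Kit and Ppbp are higher on the PLX3397 arrays.

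Of the heavy chains, which bring the light chains to the cell surface, Slc3a2 rose. Slc3a2 was at 10.93, 10.93 and 10.89 on the vehicle arrays and at 11.31, 11.41 and 11.32 on the PLX3397 arrays. The groups were narrow and apart, with a change of 0.43 (SE 0.08, 1.35-fold, adjusted p = 0.0013). The other heavy chain, Slc3a1, was above background on 1 array of 6 (3.46 ± 0.05 and 3.50 ± 0.12, adjusted p = 0.765).

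Of the 9 light chains 0 rose and 1 fell. Slc7a7, which with Slc3a2 exports arginine in exchange for neutral amino acids, was at 7.44, 7.51 and 7.29 in vehicle and at 6.80, 6.99 and 6.96 with PLX3397. It fell by 0.50 (SE 0.09, 1.41-fold, adjusted p = 0.0017), and the lowest vehicle array stayed above the highest PLX3397 array. Slc7a5, the large neutral amino acid exchanger that supplies leucine, was at 7.34, 7.15 and 7.44 in vehicle and at 7.39, 7.13 and 7.38 with PLX3397. Its change was -0.01, with a 95% confidence interval of -0.25 to 0.22 (adjusted p = 0.947). Slc7a8, a second large neutral amino acid exchanger, was at 10.25, 10.41 and 10.23 and at 10.06, 10.27 and 10.22, a change of -0.11 (interval -0.31 to 0.09, adjusted p = 0.381). Slc7a6, a relative of Slc7a7, was at 6.00 ± 0.12 and 5.94 ± 0.10, a change of -0.07 (interval -0.27 to 0.14, adjusted p = 0.624). The intervals of these 3 genes allow changes of up to 0.31 in size. Slc7a10, an exchanger of small neutral amino acids, was at 4.12 ± 0.09 and 4.37 ± 0.15 (adjusted p = 0.075) and passed without PLX3397 replicate 1 (adjusted p = 0.046). Slc7a9, Slc7a12, Slc7a13 and Slc7a15 were above background on no array. Slc7a11 and Slc7a2, which the selection leaves out, rose by 1.45 and 0.72 (adjusted p = 3.12e-06 and 6.45e-05); Slc7a11 is the cystine-glutamate exchanger that also pairs with Slc3a2.

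**Figure D4:**
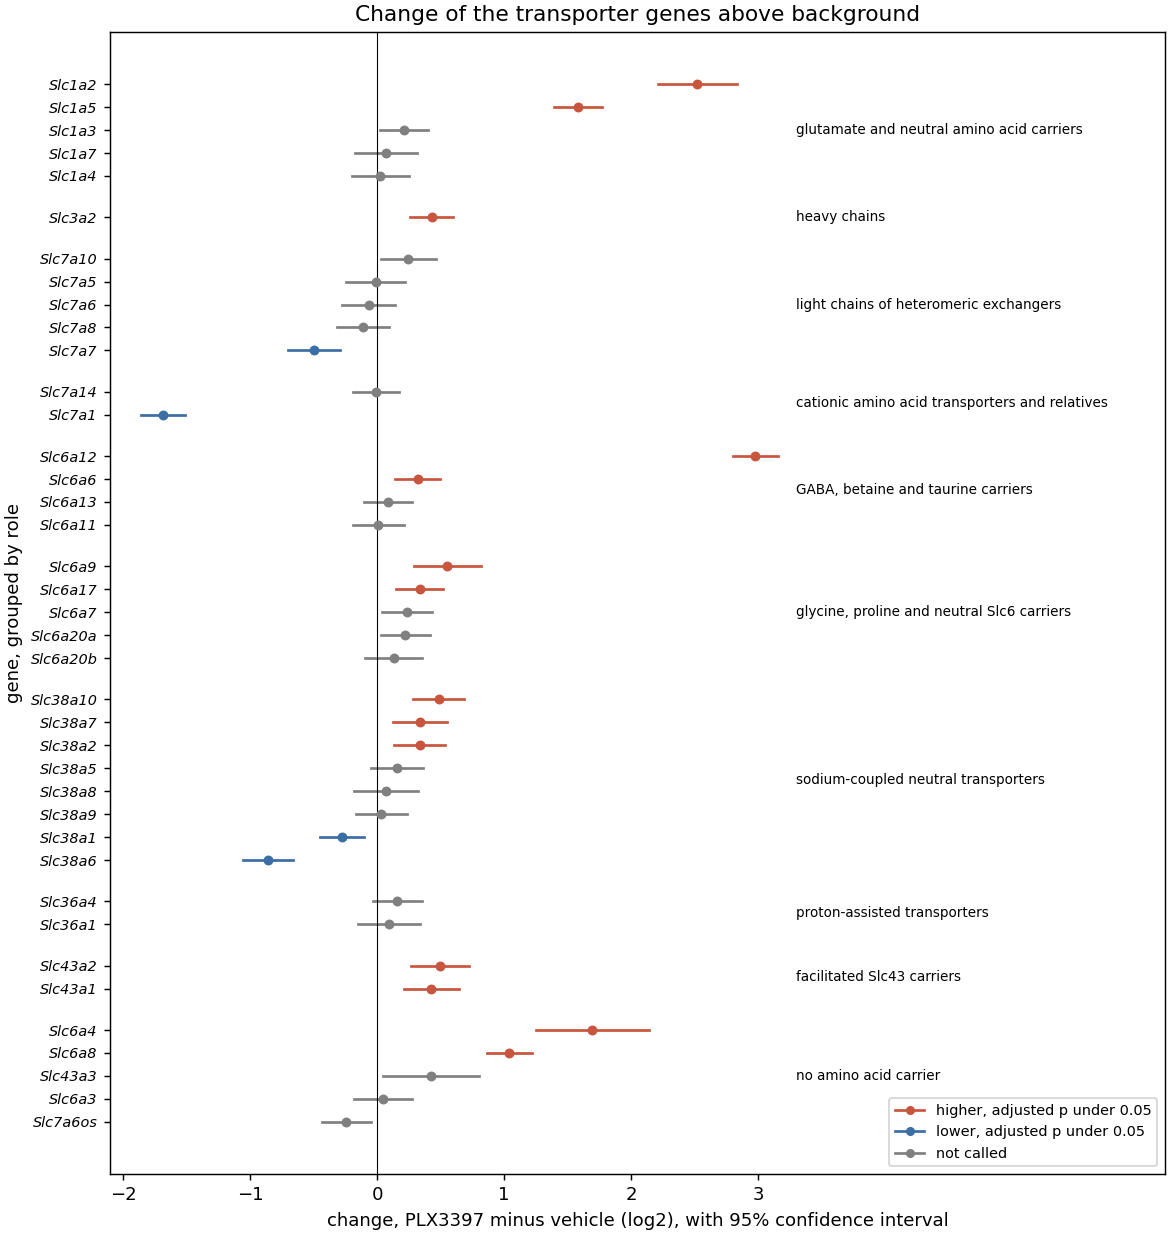
Change with PLX3397 in log2 (x axis, point) with its 95% confidence interval (line) for the 39 transporter genes above background (y axis, grouped by role), coloured by call. Slc3a2 rises while the intervals of its light chains Slc7a5, Slc7a6 and Slc7a8 span 0 and that of Slc7a7 lies below it, and Slc7a1 and Slc6a12 have the most distant intervals on either side.

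Slc7a1, the cationic amino acid transporter with the most marked fall, was at 7.65, 7.60 and 7.73 on the vehicle arrays and at 5.97, 6.01 and 5.95 on the PLX3397 arrays. Every PLX3397 array was more than 1 log2 below every vehicle array. The change was -1.68 (SE 0.08, 3.21-fold lower, adjusted p = 1.42e-07) and ran from -1.79 to -1.60 over the alternatives. Of its relatives, Slc7a14, a cationic transporter of intracellular membranes, was near background at 3.79 ± 0.10 and 3.78 ± 0.04 (adjusted p = 0.946). Slc7a3 and Slc7a4 were above background on no array, and the call on Slc7a3 (adjusted p = 0.040) lies below it.

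Among the 11 sodium-coupled neutral transporters of Slc38, 3 rose, 2 fell and 6 were not called. Slc38a6, a little-characterised member, was at 8.51, 8.72 and 8.48 in vehicle and at 7.74, 7.68 and 7.72 with PLX3397. The PLX3397 arrays lay close together and below all vehicle arrays, a change of -0.86 (SE 0.09, 1.81-fold lower, adjusted p = 2.97e-05). Slc38a10 was at 7.78, 7.66 and 7.90 in vehicle and at 8.24, 8.36 and 8.21 with PLX3397. It rose by 0.49 (SE 0.09, adjusted p = 0.0016) without overlap between groups.

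Slc38a1 and Slc38a2, which take up glutamine, alanine and other small neutral amino acids and lie side by side in the RefSeq gene order, changed in opposite directions by small amounts. Slc38a1 was at 8.77, 8.87 and 8.78 on the vehicle arrays and at 8.59, 8.54 and 8.47 on the PLX3397 arrays, a change of -0.28 (SE 0.08, adjusted p = 0.018). Slc38a2, known for its induction when amino acids are short, was at 8.25, 8.22 and 8.31 in vehicle and at 8.65, 8.69 and 8.44 with PLX3397, a change of 0.34 (SE 0.09, adjusted p = 0.013). The groups did not overlap for either gene. The fall of Slc38a1 rested on 1 of its 2 probe sets. On their mean the change was -0.14 (adjusted p = 0.277), and the call was also lost without vehicle replicate 2 (0.063) or PLX3397 replicate 3 (0.052), over a range of 0.0035 to 0.277. The rise of Slc38a2 lost its call with centred arrays (change 0.23, adjusted p = 0.087) and without PLX3397 replicate 1 (0.050), over a range of 0.0039 to 0.087. Slc38a4, the next gene in the order, was above background on no array.

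Of the lysosomal members, Slc38a7, which exports glutamine and asparagine from the lysosome, was at 8.23, 8.18 and 8.37 in vehicle and at 8.50, 8.75 and 8.54 with PLX3397. The rise of 0.34 (SE 0.10, adjusted p = 0.018) lost its call with centred arrays (change 0.23, adjusted p = 0.098) and without vehicle replicate 1 (0.059), vehicle replicate 2 (0.070) or PLX3397 replicate 2 (0.062), over a range of 0.0075 to 0.098. Slc38a9, an arginine sensor of mTORC1 on the lysosome, was at 7.27, 7.48 and 7.38 in vehicle and at 7.48, 7.46 and 7.30 with PLX3397, with a change of 0.04 (interval -0.17 to 0.24, adjusted p = 0.802). The proton-coupled carriers Slc36a1 and Slc36a4, which also reside on lysosomes, were at 7.58 ± 0.18 and 7.67 ± 0.14 and at 7.70 ± 0.11 and 7.86 ± 0.05. Neither was called (adjusted p = 0.558 and 0.175), although Slc36a4 passed with quantile normalisation (0.033). Slc36a2, which lies beside Slc36a1 in the RefSeq gene order, and Slc36a3, which lies beside Slc36a2, exceeded background on 2 and 4 of the 6 arrays (adjusted p = 0.052 and 0.928). Near background were Slc38a5 (3.91 ± 0.15 and 4.06 ± 0.01) and Slc38a8 (4.04 ± 0.22 and 4.11 ± 0.09), with adjusted p of 0.208 and 0.669, while Slc38a11 was above background on no array.

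Both Slc43 carriers of branched-chain amino acids and phenylalanine rose. Slc43a2 was at 7.77, 7.73 and 7.82 on the vehicle arrays and at 8.08, 8.46 and 8.26 on the PLX3397 arrays. The change was 0.50 (SE 0.10, 1.41-fold, adjusted p = 0.0032), with the PLX3397 arrays more widely spread than the vehicle arrays. Slc43a1 was near background, at 3.64, 3.61 and 3.40 in vehicle and at 3.84, 4.04 and 4.05 with PLX3397, a change of 0.43 (SE 0.10, adjusted p = 0.0059).

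Of 12 glycine, proline and neutral amino acid carriers of Slc6, 3 rose and 0 fell. Slc6a9, a glycine transporter, was at 6.10, 6.30 and 5.88 on the vehicle arrays and at 6.56, 6.57 and 6.81 on the PLX3397 arrays. The change was 0.55 (SE 0.12, 1.47-fold, adjusted p = 0.0041), and the gap between the groups was narrower than the spread of the vehicle arrays. Slc6a17, a vesicular carrier best known from neurons, was at 4.08, 4.13 and 4.00 in vehicle and at 4.36, 4.50 and 4.36 with PLX3397 (change 0.34, SE 0.08, adjusted p = 0.0085). Its call was lost with centred arrays (change 0.23, adjusted p = 0.056, over a range of 0.0066 to 0.056). The third, Slc6a19, a carrier of neutral amino acids in gut and kidney, was above background on no array (2.80 ± 0.02 and 3.18 ± 0.07, adjusted p = 0.0031) and gets no fold. The proline carriers Slc6a7 (3.56 ± 0.09 and 3.80 ± 0.09), Slc6a20a (3.71 ± 0.10 and 3.93 ± 0.08) and Slc6a20b (3.54 ± 0.02 and 3.67 ± 0.19) were near background and not called (adjusted p = 0.057, 0.068 and 0.358). Slc6a7 passed without vehicle replicate 2 (0.043) or PLX3397 replicate 3 (0.039), and both Slc6a7 (0.028) and Slc6a20a (0.046) passed with array weights. Slc6a5, Slc6a14, Slc6a15, Slc6a16 and Slc6a18 were above background on no array, and Slc6a21 on 1.

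Of the 7 genes that encode no amino acid carrier, Slc6a4 and Slc6a8 rose. Slc6a8, which takes up creatine, was at 7.94, 7.94 and 7.94 on the vehicle arrays and at 8.90, 8.97 and 9.07 on the PLX3397 arrays, a change of 1.04 (SE 0.08, 2.06-fold, adjusted p = 3.86e-06). The vehicle arrays were nearly identical and the PLX3397 arrays all about 1 log2 higher. Slc6a4, the serotonin transporter, was below background on all vehicle arrays, at 3.49, 3.33 and 2.94, and above it on all PLX3397 arrays, at 5.43, 4.66 and 4.76. It was at least 2.685-fold higher with PLX3397, set against the background level (fitted change 1.70, SE 0.20, adjusted p = 7.80e-05). Nucleobase carrier Slc43a3 was at 5.34, 5.69 and 5.55 in vehicle and at 5.79, 5.68 and 6.39 with PLX3397. The groups overlapped, PLX3397 replicate 3 stood above the rest, and the change of 0.43 was not called (adjusted p = 0.076). Without the high array it was 0.21 (adjusted p = 0.193), and it passed without PLX3397 replicate 2 (0.036) and among genes with a mean of at least 5 (0.043). Slc6a3 was at 4.54 ± 0.17 and 4.59 ± 0.10 (adjusted p = 0.769), and Slc6a2 at 3.58 ± 0.10 and 3.54 ± 0.06, near background. Slc7a6os was at 6.39 ± 0.06 and 6.14 ± 0.11 (adjusted p = 0.051) and passed as lower in 5 alternatives, among them centring (0.011) and leaving out PLX3397 replicate 2 (0.037). Slc6a19os was above background on no array.

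Serotonin transporter transcript is typical of platelets, mast cells and basophils. Of 8 mast cell and basophil markers 3 rose and 0 fell, namely Hdc (3.59), Gata2 (3.22) and Kit (1.08). The summed linear value of the 8 was 85.7 to 99.5 in vehicle and 364.5 to 520.0 with PLX3397. Of the other 5 markers, the granule gene Tpsb2 was above background on all 6 arrays and not called, at 3.92 ± 0.01 and 3.95 ± 0.06, while Cpa3, Mcpt4, Mcpt8 and Fcer1a were above background on no array. Of 5 measured erythroid and platelet markers 4 rose and 0 fell, namely Ppbp (2.52), Pf4 (0.54), Itga2b (0.51) and Gp9 (0.31), with sums of 2130 to 2235 and 3303 to 4411. Pf4, the brightest of the 5 in both groups (10.99 and 11.53), weighs most in these sums. Itga2b (4.08 and 4.59) and Gp9 (3.45 and 3.76) were dim, and Epor was not called. For comparison, 19.6% of all genes were called as higher and 18.3% as lower. The part of platelets, mast cells and basophils in the rise of Slc6a4 was not tested.

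The sorted cells carried the macrophage genes in both groups. All 8 macrophage markers, among them Csf1r, Adgre1 and Cd68, were above background, with 2 higher and 3 lower with PLX3397. Markers of other cells went up in part: 4 of 8 endothelial markers rose and 0 fell, as did 2 and 0 of 8 T cell markers, 4 and 0 of 5 B cell markers and 3 and 0 of 8 dendritic cell markers. Ms4a1 and Cd79a, among the 4 B cell markers that rose, were above background on no array. Among all genes, for comparison, 19.6% were called as higher and 18.3% as lower. The called dendritic cell markers were Ccr7 (3.35), Itgax (3.04) and Zbtb46 (0.39). Flt3 and Cd209a were not called, and Clec9a, Xcr1 and Siglech were above background on no array. The list's summed linear value was 289.8 to 330.5 in vehicle and 1812 to 2396 with PLX3397. Itgax, the brightest of the list in both groups (7.82 and 10.86), weighs most in that sum. Neutrophil markers rose in 4 of 10 cases, 2 of them (Ltf and Ly6g) above background on no array, and fell in 1. Their changes ran from -1.55 to 5.48, with sums of 893.6 to 996.9 and 3735 to 4390. Fibroblast and stellate markers rose in 0 of 9 and fell in 2, and none of 6 NK cell markers was called. The part of these cells in the transporter changes was not tested. The 6 arrays gave Pearson correlations across genes, which are not independent replicates, of at least 0.9961 within vehicle and 0.9916 within PLX3397, and of at most 0.9612 between groups. Without PLX3397 replicate 3, 18 transporter genes rose and 3 fell, with changes of 2.62 for Slc1a2, 1.59 for Slc1a5 and -1.67 for Slc7a1.

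Other genes that carry, sense and use amino acids were read as lists beside the transporters. Of 11 carriers outside the selection, 7 rose and 2 fell, with a median change of 0.44. All 11 were above background and 81.8% were called, beside 52.4% of all genes above background. Slc16a10, a carrier of aromatic amino acids, fell by 2.62 (SE 0.09, adjusted p = 2.28e-08), and Ctns, which exports cystine from the lysosome, rose by 1.02 (SE 0.09, adjusted p = 1.12e-05). The 7 rises include those of Slc7a2 and Slc7a11 given above. Not every gene of this list carries amino acids: Slc44a1, which fell by 1.20, and Slc44a2 carry choline, and Slc17a9 carries nucleotides.

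Among 39 genes of lysosomal amino acid sensing and mTORC1, 9 rose and 11 fell, and the median change was -0.03. Of the 38 above background 52.6% were called, beside 52.4% of all genes above background. The counts thus say nothing particular about this list. The largest changes were those of the arginine sensor Castor1, which rose by 1.49 from 3.76 to 5.25, of the transcription factor Mitf, which fell by 1.16, of the mTORC1 activator Rheb, which fell by 1.04, and of Castor2, a close relative of Castor1, which rose by 0.98. The list for the amino acid response through the kinase GCN2 and ATF4 also holds the related kinase genes Eif2ak1, Eif2ak2 and Eif2ak3. Of its 24 genes 12 fell and 5 rose, with a median change of -0.24. All 24 were above background and 70.8% were called, beside 52.4% of all genes above background (26.7% higher and 25.7% lower). Eif2ak2 fell by 1.09 and Eif2ak1 by 0.30, while Eif2ak3 and Eif2ak4, the gene of GCN2, were not called (adjusted p = 0.938 and 0.345). Asns, the asparagine synthetase, fell by 2.59, the folate enzyme gene Mthfd2 by 1.61 and Nupr1 by 1.37, while Ddit4, an inhibitor of mTORC1, rose by 2.37.

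Of 40 amino acid metabolism enzymes 11 rose and 12 fell, with a median of -0.0034. Of the 34 above background 67.6% were called, beside 52.4% of all genes above background. The arginine-using enzymes led the rises, with Arg1 higher by 5.57 and Nos2 by 3.58, in the same samples in which Slc7a1 fell by 1.68 and Slc7a7 by 0.50. Not all Slc7 genes fell in these samples, since Slc7a2, which the selection leaves out, rose. Asns, in both lists, and Bckdhb, a subunit of the branched-chain keto acid dehydrogenase that fell by 1.68, led the falls.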

How the data were processed

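Per the labels' protocols, RNA of sorted tumour macrophages was read on Affymetrix arrays (Mouse Gene 1.0 ST). The authors deposited 1 log2 value per probe set and array; how these were summarised and normalised is not given in the sources used here. MAS5 is named, without version or role, in the submitters' processing notes. That the scale is log2 was judged from the range of the values. Array medians lay between 4.21 and 4.35, and values were used as deposited.

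Of 28941 probe sets, 21789 carry 1 symbol in the platform annotation and gave 19938 genes. All 62 members matched a RefSeq record by Entrez identifier. Scanner files and batches were not analysed here. Differences between groups came from lmFit and eBayes of limma 3.58.1 (R 4.3.3, two-sided) with group as the only term, adjusted by Benjamini-Hochberg, after the script was tested on simulated data. The number of arrays limits the precision: an exact permutation test of 1 gene cannot go below 0.1. The members, gene lists and background level were chosen with earlier results of these data known. Named with all values were the called members above background, by size of change; other members above background with at least their means; and from each pathway list, up to 4 called genes with the largest change. Slc7a2 is named because the selection leaves it out, and the marker genes named were chosen after their values were seen. A fold is a lower bound where a group lay below background on all arrays. Alternatives covered normalisation, centring, filters on dim genes, the replicate number as a block, variance settings, array weights, probe sets, thresholds and leaving out each array.

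Same-numbered arrays of the 2 groups did not deviate together (correlations of -0.0104, 0.00796 and -0.0133), so replicate numbers were not taken as pairs.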

Additional observations from a re-analysis of the deposited data

How the results depend on the processing

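Against 17 rises, 4 falls and 7539 called genes in all, centring the arrays left 11 rises, and requiring 1 log2 as well left 5 rises, 1 fall and 1445 called genes. The other alternatives kept these counts within 1.5 times, with 14 to 18 rises, 3 to 5 falls and 6332 to 7101 called genes without 1 array. The replicate block gave 17 rises, 4 falls and 7154 called genes, and changed no call of the 41 members followed. The median change of the transporters, 0.11, was 0.0912 with quantile normalisation, -0.00050 with centring, 0.16 over genes above background, 0.32 over genes with a mean of at least 5, 0.12 with array weights, 0.13 without the 2 opposite-strand genes, 0.13 without the 7 genes that carry no amino acid (both chosen after seeing the data), and 0.0882 to 0.15 without 1 array. The filters and left-out genes change which genes are counted; the cause of the other moves was not tested.

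Some genes that were not called turned sign without being called. With quantile normalisation the changes were -0.0785 for Slc1a4, -0.0194 for Slc1a7, -0.0330 for Slc38a8, -0.0966 for Slc6a11, -0.0210 for Slc6a13, -0.0680 for Slc6a3, 0.10 for Slc7a5, -0.0365 for Slc3a1. With centring they were -0.0833 for Slc1a4, -0.0392 for Slc1a7, -0.0165 for Slc36a1, -0.0380 for Slc38a8, -0.0750 for Slc38a9, -0.10 for Slc6a11, -0.0205 for Slc6a13, -0.0638 for Slc6a3, -0.0696 for Slc3a1. On the mean of its probe sets Slc38a9 was at -0.0197. Without 1 array they ran from -0.0680 to 0.11 for Slc1a4, from -0.00211 to 0.19 for Slc1a7, from -0.00375 to 0.17 for Slc36a1, from -0.0291 to 0.19 for Slc38a8, from -0.0198 to 0.0901 for Slc38a9, from -0.0351 to 0.0725 for Slc6a11, from -0.0454 to 0.12 for Slc6a3, from -0.0636 to 0.0256 for Slc7a14, from -0.0902 to 0.0732 for Slc7a5, from -0.0296 to 0.0877 for Slc3a1, from -0.0944 to 0.00777 for Slc6a2. The cause of these turns was not tested. Signals near background limit the dim members.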

Other observations

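Of 14 carriers that bring amino acids and related metabolites into mitochondria 2 rose and 4 fell, 42.9%, beside 37.8% of all genes. Their changes ran in both directions, from -1.37 to 0.74, with a median of -0.00038. Sfxn1, the mitochondrial serine carrier, fell by 1.37 (SE 0.09, adjusted p = 1.11e-06 in the limma fit), and its relative Sfxn3 rose by 0.74. Slc25a38, a mitochondrial glycine carrier, rose by 0.48, and Slc25a15, the ornithine carrier of the urea cycle, fell by 0.44.

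Slc38a1 and Slc38a9 have a second, dimmer probe set each. That of Slc38a1 was at 5.18, 5.14 and 5.37 on the vehicle arrays and at 5.43, 5.26 and 5.01 on the PLX3397 arrays, with overlap between the groups. That of Slc38a9 was at 5.38 ± 0.11 and 5.30 ± 0.05.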
